A study of Mus musculus with 8 samples.

Results

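Contacts of 5 promoter viewpoints were compared between cortical neurons and embryonic stem (ES) cells of the mouse. The comparison used 4 of the 8 libraries of the series, chosen by their labels, with 2 libraries of neurons and 2 of ES cells. The neurons had been differentiated from E14.5 (embryonic day) neuronal stem cells. The dishes of neuron replicate 1 were coated with poly-D-lysine and held Neurobasal B27 medium with glutamine, and the labels of neuron replicate 2 give no culture protocol. The ES cells had been grown on gelatin with serum and leukemia inhibitory factor, which keeps them pluripotent. The labels give no strain, clone or genetic change for either group, nor whether the replicates came from different cultures. Each p therefore speaks only to the spread between these libraries, which may be technical. The model estimates that spread partly from the other windows, bands or gene bodies of the same fit. The other libraries, 2 of neuronal stem cells (NSC) and 2 of the neuroblastoma line N2a, entered the model so that 4 cell types shared 1 estimate of the spread. The files hold contacts of genomic DNA and no expression, so the labelled cell types could not be checked against marker genes.

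In a chromosome conformation assay chromatin is crosslinked, cut with a restriction enzyme and ligated, and the pieces joined to a chosen viewpoint are sequenced. Reads fall steeply with distance from the viewpoint, and a stretch that is read more often than its distance would give is one that lies near the viewpoint in more cells or for longer. Promoters of developmental transcription factor genes are often touched by enhancers that lie far away along the chromosome, and such contacts commonly differ between cell types. Pax6 acts in eye, brain and pancreas development and is read from several promoters, among them P0 and P1, with Paupar, a noncoding RNA gene of the nervous system, just upstream. Sox2 keeps ES cells pluripotent and neural progenitors undifferentiated, and in mouse ES cells its expression depends on a control region far downstream of the gene. Pou3f3 is a POU-domain factor of upper-layer cortical neurons and is flanked by noncoding genes such as Pantr1 and Pantr2.

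The viewpoints lay on 3 chromosomes of mm10. The Paupar viewpoint was at chr2:105660480-105662320, the Pax6P0 viewpoint at chr2:105667489-105669388 and the Pax6P1 viewpoint at chr2:105674040-105676188. The Sox2 viewpoint was at chr3:34647002-34650633 and the Pou3f3 viewpoint at chr1:42695817-42699251. Distances are from the centre of these stretches, and upstream means lower coordinates. Every value below is a share of cis reads, that is, the percent of reads from the chromosome of the viewpoint after leaving out the nearest 5 kb. Values of 2 libraries are given with replicate 1 before replicate 2.

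The sequences below, from RefSeq for GRCm38.p6 (the mm10 build), are the 250 bases before start sites that the results turn on. They are printed 5′ to 3′ on the plus strand, which is the strand of each of these genes. The Gm29260 and Gm28175 sequences end at start sites inside windows that the Pou3f3 viewpoint contacted more in neurons, and the Pax6 and Sox2 sequences lie inside the Pax6P0 and Sox2 viewpoint stretches. Capitals mark GATC, which reads the same on both strands.
Gm29260, chr1:41742772-41743021: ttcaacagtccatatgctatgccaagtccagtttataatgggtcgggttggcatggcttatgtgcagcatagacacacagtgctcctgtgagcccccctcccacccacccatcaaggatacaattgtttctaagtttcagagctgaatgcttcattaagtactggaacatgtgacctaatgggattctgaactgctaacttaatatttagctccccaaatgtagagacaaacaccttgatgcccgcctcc
Gm28175, chr1:42257602-42257851: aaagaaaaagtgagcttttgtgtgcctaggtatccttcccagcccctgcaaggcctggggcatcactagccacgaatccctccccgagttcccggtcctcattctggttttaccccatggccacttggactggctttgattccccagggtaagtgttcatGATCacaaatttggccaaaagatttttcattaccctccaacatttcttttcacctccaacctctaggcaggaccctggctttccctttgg
Pax6, chr2:105668646-105668895: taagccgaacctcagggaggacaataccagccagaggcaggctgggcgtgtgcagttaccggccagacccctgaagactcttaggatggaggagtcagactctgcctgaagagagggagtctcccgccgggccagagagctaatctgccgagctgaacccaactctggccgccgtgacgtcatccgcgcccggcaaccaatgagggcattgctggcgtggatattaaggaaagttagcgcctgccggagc
Sox2, chr3:34649745-34649994: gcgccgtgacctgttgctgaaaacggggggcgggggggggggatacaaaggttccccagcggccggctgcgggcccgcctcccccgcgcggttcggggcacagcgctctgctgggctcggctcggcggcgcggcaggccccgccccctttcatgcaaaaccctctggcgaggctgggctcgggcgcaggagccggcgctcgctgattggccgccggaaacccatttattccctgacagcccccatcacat

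The sequence GATC bears on the resolution of the contacts. All 1774 fragment starts of the files that fell inside RefSeq promoter sequences lay at a GATC, although the labels do not name the enzyme. Of 32851 RefSeq promoter sequences of 250 bases, 41.9% held a GATC. Of the sequences above, that of Gm28175 held 1 and the others held none. CG dinucleotides numbered 2 before Gm29260 and 3 before Gm28175, against 15 before Pax6 and 27 before Sox2, where all promoter sequences had a median of 6 with quartiles of 2 and 16. The Sox2 start thus stood above the upper quartile. Further annotated starts of Gm29260 in passing windows, at 41887071 and 41895671 on chromosome 1, each had 1 CG dinucleotide in the 250 bases before them, below the lower quartile.

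Summed over the viewpoints, the neuron libraries held 363111 and 254435 listed reads and the ES libraries 574791 and 247067. The 20 files ranged over 38304 to 137331 listed reads (median 63248), and 52.4% to 70.9% of them lay on the viewpoint's chromosome. The median tested window of 5 kb had 19 to 86.5 reads, depending on the file. Between replicates the coefficient of variation was 55.3% to 73.1% for windows, 40.04% for gene bodies and 15.8% for distance bands, so the wider units resolve smaller differences. The reads carry no stated molecular identifiers, so a read need not be a separate molecule. With 2 libraries a group, the smallest two-sided p of an exact permutation test is 0.333, and none was run.

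Neurons kept a larger share of cis reads within 1 Mb of each viewpoint than ES cells, with the smallest gap at Paupar. From Pax6P1 the share within 1 Mb was 59.7% ± 0.653 in neurons and 52.3% ± 0.359 in ES cells (SD, n = 2 each). From Sox2 it was 74.0% ± 2.95 in neurons and 68.8% ± 1.01 in ES cells, and from Pou3f3 59.4% ± 0.922 in neurons and 56.1% ± 0.282 in ES cells. From Pax6P0 it was 59.7% ± 1.65 in neurons and 55.7% ± 3.18 in ES cells. From Paupar it was 58.4% ± 0.657 in neurons and 57.1% ± 0.756 in ES cells. These shares were described and not tested.

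The sides of the viewpoints moved apart. From Sox2 the upstream side held 32.2% ± 0.353 in neurons and 20.0% ± 0.0878 in ES cells, while the downstream side held 41.8% ± 2.60 in neurons and 48.8% ± 0.924 in ES cells. From Pou3f3 the upstream side held 39.5% ± 0.840 in neurons and 31.5% ± 0.477 in ES cells, and the downstream side 19.8% ± 0.0821 in neurons and 24.6% ± 0.195 in ES cells. From Pax6P1 the downstream side, which holds most of Pax6 and then Elp4, was 34.9% ± 3.11 in neurons and 24.4% ± 0.470 in ES cells. In each of these pairs the neuron libraries did not overlap the ES libraries.

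**Figure D1:**
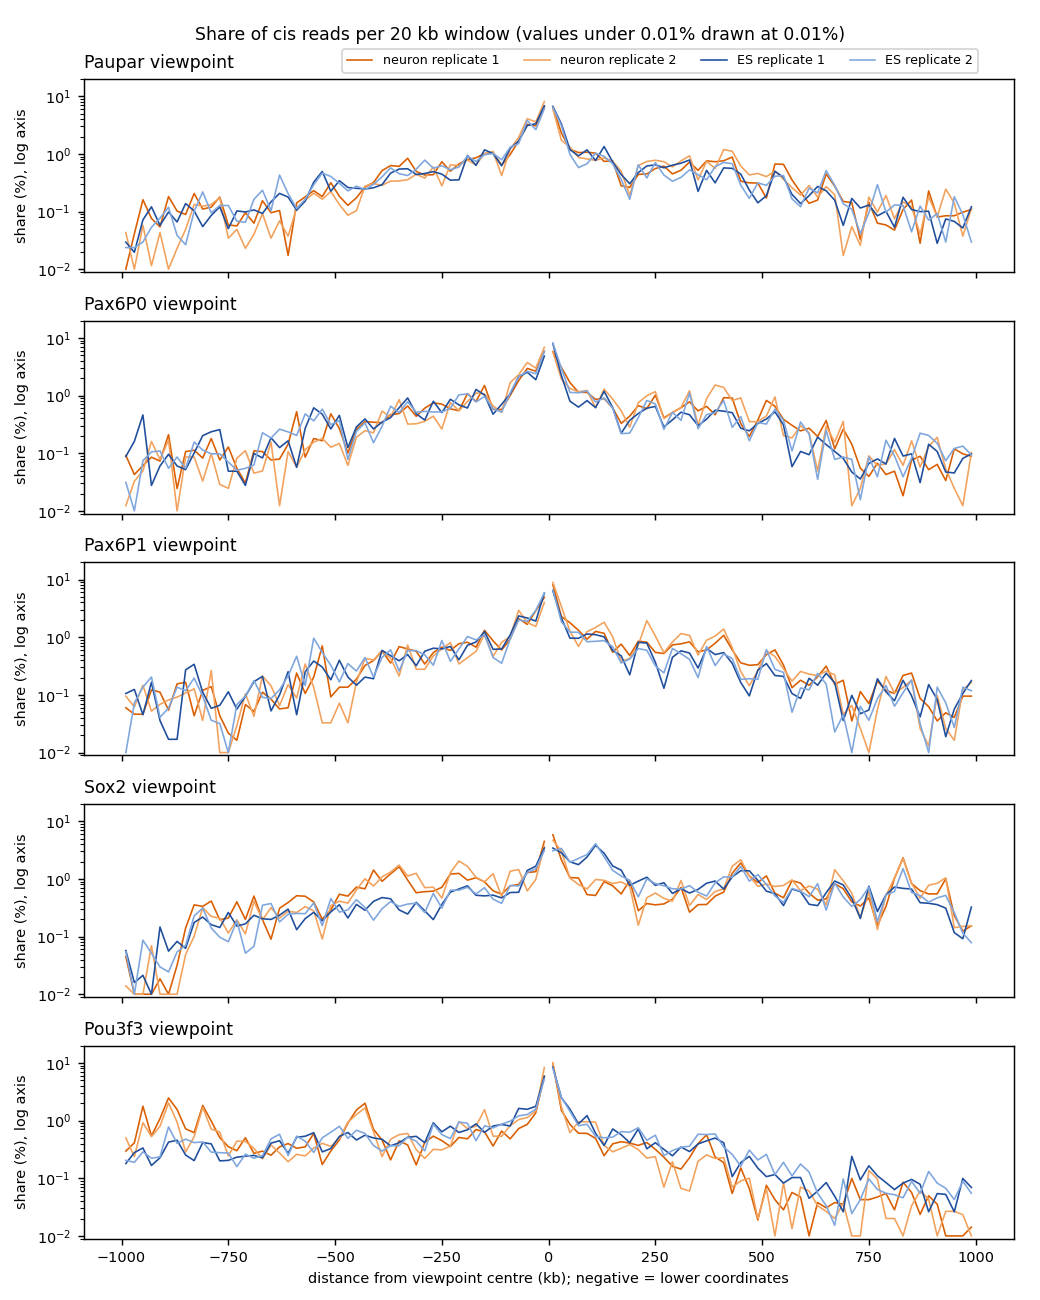
Share of cis reads (%, log axis) in 20 kb windows against distance from each viewpoint's centre (kb), 1 line per library, neuron replicates in orange and ES replicates in blue. The neuron lines lie above the ES lines 200 to 500 kb upstream of Sox2 and over most of Gm29260, far upstream of Pou3f3. They lie below the ES lines in most windows 50 to 200 kb downstream of Sox2. At the Pax6 locus the lines run closer together, though the neuron lines lie above in most windows 200 to 500 kb downstream of Pax6P1.

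Shares add up within a library, so a gain in one place lowers the rest. Across every window tested, neurons differed from ES cells by a median log2 of 0.01 at Paupar, 0.16 at the Pax6P0 and 0.22 at the Pax6P1 viewpoint, 0.29 at Sox2 and -0.26 at Pou3f3, and changes are to be read against these medians. With TMM factors, which set most windows as unchanged, the medians were -0.07, -0.06, 0.04, 0.02 and -0.19 in the same order. Windows, bands and gene bodies were tested with edgeR's quasi-likelihood test with Benjamini-Hochberg adjustment, and an adjusted p below 0.05 is called passing.

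Windows passed at Sox2 and Pou3f3 and at none of the viewpoints of the Pax6 locus. From Sox2 8 of 366 windows passed (2.19%), 4 higher and 4 lower in neurons (1.09% each). TMM factors gave 6 passing Sox2 windows, 1 higher and 5 lower, and DESeq2 size factors 5, 1 higher and 4 lower, so the split at this viewpoint depended on the scaling. From Pou3f3 14 of 323 windows passed (4.33%), all higher in neurons. From Paupar edgeR passed 0 of 356 (0%) and DESeq2 0, while 12 had an unadjusted edgeR p under 0.05. From Pax6P0 edgeR passed 0 of 321 (0%) and DESeq2 0, with 15 such windows, and from Pax6P1 0 of 320 (0%) and 0, with 13. Neuron libraries lay wholly above ES libraries in 17.4% of the Paupar and 21.8% of the Pax6P0 windows and wholly below in 17.4% and 17.1%. Across windows, which are not independent replicates and share the fall with distance, Spearman correlations from Sox2 were 0.663 between neuron libraries, 0.765 between ES libraries and 0.483 to 0.598 across the groups. From Pou3f3 they were 0.695, 0.687 and 0.512 to 0.574. From Paupar they were 0.748, 0.741 and 0.698 to 0.778, with values across the groups spanning those within them. From Pax6P0 they were 0.728, 0.690 and 0.662 to 0.687, and from Pax6P1 0.726, 0.702 and 0.613 to 0.709. All values across the groups lay below both within-group values from Pax6P0, Sox2 and Pou3f3, while those from Pax6P1 reached above the value between ES libraries.

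Of 60 distance bands, which sum all windows at a given distance, 12 passed (20%), 7 higher (11.7%) and 5 lower (8.33%) in neurons. With TMM factors 12 bands passed, 4 higher and 8 lower, and DESeq2 size factors or reads within 1 Mb as library size each gave 10, 4 higher and 6 lower. Groups did not overlap in 40% of the bands with neurons above and in 30% with neurons below. The bands that kept passing without each of the 4 libraries in turn were 6, namely 3 at Sox2, 2 at Pou3f3 and 1 at Pax6P1.

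**Figure D2:**
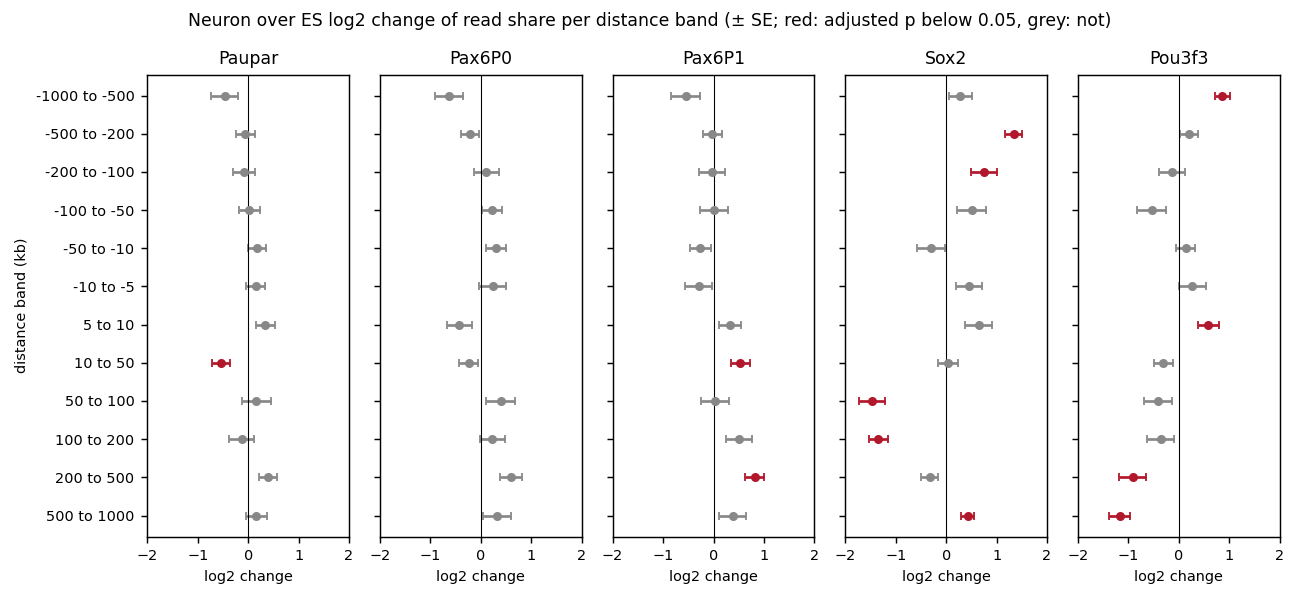
Log2 change of read share in neurons over ES cells (x axis) for each distance band (y axis, kb, negative is upstream), with bars of 1 standard error and 1 panel per viewpoint. Passing bands are red, among them Sox2 50 to 200 kb downstream to the left of 0 and Sox2 200 to 500 kb upstream to the right of it.

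At Sox2 neurons had much less contact than ES cells with the downstream control region. The region 100 to 120 kb downstream (chr3:34748817-34768816), where the distal control region of Sox2 is known to lie in mouse ES cells, held 0.516% and 0.976% of cis reads in neurons, against 3.82% and 4.08% in ES cells. Both neuron libraries lay far below both ES libraries. On the log2 scale neurons differed from ES cells by -2.41 (SE 0.42, adjusted p = 1.8e-08 by edgeR's quasi-likelihood test, a family of 1 test). The region was fitted together with the Sox2 windows, so its p also rests on their spread. NSC held 0.797% ± 0.0705 and N2a cells 0.796% ± 0.353 there (SD, n = 2 each). By the q value below 0.05 in the authors' deposited table, the region had 0 and 0 such fragments in neurons, against 14 and 13 in ES cells, of 35 or 36 listed in each neuron library and 37 or 38 in each ES library. Within 1 Mb of the Sox2 viewpoint 37 of 3054 and 36 of 2860 fragments were such in neurons. In ES cells 67 of 3421 and 55 of 3068 were. These fragment counts were not tested. The change passed in every alternative fit, from -2.94 to -1.81 on the log2 scale. The -2.94 came without neuron replicate 2, and without neuron replicate 1 the change was -2.02.

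The 4 lower windows lay at and next to that region, in sequence with no annotated gene. The window 95 to 100 kb downstream (chr3:34743817-34748816) held 0.151% and 0.119% in neurons, against 1.10% and 1.07% in ES cells. Its log2 change was -2.9995 (SE 0.61, adjusted p = 3.1e-04, edgeR), and it passed without each library. The window 110 to 115 kb downstream (chr3:34758817-34763816) held 0.167% and 0.230% in neurons, against 1.26% and 1.59% in ES cells, the highest of these 4 windows in both ES libraries. It fell by 2.84 (SE 0.59, adjusted p = 3.1e-04), with adjusted p of 0.0731 without neuron replicate 1 and 0.0627 without ES replicate 2. The windows 105 to 110 kb and 115 to 120 kb downstream fell by 2.34 (adjusted p = 0.0113) and 2.59 (adjusted p = 0.0319). In all 4 windows the groups did not overlap, and the neuron shares of 0.112% to 0.310% stood below the lowest ES share of 0.631%. The call 105 to 110 kb downstream ended without neuron replicate 1, ES replicate 1 or ES replicate 2 (adjusted p up to 0.271), and that 115 to 120 kb downstream ended without any of the 4 libraries (adjusted p 0.224 to 0.475). Adjacent fragments often repeat a count, and with the fewest reads that such runs allow, the windows from 105 to 120 kb no longer passed, with adjusted p of 0.0695, 0.543 and 0.131.

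Contact was also lower over a wider stretch than the control region. The band 50 to 100 kb downstream held 2.00% and 1.85% in neurons, against 5.05% and 5.65% in ES cells, and fell by 1.47 (SE 0.25, adjusted p = 4.3e-05). In 10 of its 10 windows both neuron libraries lay below both ES libraries, against 21% of the Sox2 windows. The band 100 to 200 kb downstream held 3.66% and 4.38% in neurons, against 10.5% and 9.97% in ES cells, and fell by 1.35 (SE 0.19, adjusted p = 3.7e-06). It includes the control region, and the part beyond that region was not tested by itself. Both neuron libraries lay below both ES libraries in 14 of its 20 windows. NSC held 2.09% ± 0.401 and 4.06% ± 0.729 in these bands. Closer to the gene, from 10 to 50 kb downstream, the shares were 5.77% and 6.65% in neurons, against 5.67% and 6.42% in ES cells, and the groups overlapped.

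From 100 to 500 kb upstream of Sox2 neurons had more contact, while the groups overlapped 10 to 50 kb and 500 to 1000 kb upstream. Both neuron libraries also lay above both ES libraries 50 to 100 kb upstream (log2 0.51) and 5 to 10 kb upstream (log2 0.45). Neither of these nearer bands passed (adjusted p = 0.234 for each by edgeR over all bands). The band 200 to 500 kb upstream held 13.5% and 14.9% in neurons, against 5.57% and 5.69% in ES cells. Its log2 change was 1.34 (SE 0.17, adjusted p = 7.6e-07), and it was 1.08 with TMM factors. In 36 of its 59 windows both neuron libraries lay above both ES libraries and in 0 below, where 30.6% of the Sox2 windows lay above. NSC held 13.3% ± 0.837 in this band. The band 100 to 200 kb upstream held 4.05% and 5.33% in neurons, against 2.78% and 2.79% in ES cells (log2 0.75, adjusted p = 0.0445). That call ended with TMM factors (adjusted p = 0.185) and without neuron replicate 2, ES replicate 1 or ES replicate 2 (adjusted p 0.266 to 0.317).

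Within that upstream stretch 4 windows passed. The window 360 to 355 kb upstream (chr3:34288817-34293816) held 0.455% and 0.728% in neurons, against 0.0837% and 0.0271% in ES cells, where the ES libraries had 63 and 10 reads. Its log2 change was 3.37 (SE 0.73, adjusted p = 5.5e-04), and the call ended without neuron replicate 2 (adjusted p = 0.0993) or ES replicate 2 (adjusted p = 0.220). The adjoining window 365 to 360 kb upstream held 0.632% and 0.526% in neurons, against 0.121% and 0.117% in ES cells (log2 2.28, adjusted p = 0.0444), with adjusted p of 0.385 without neuron replicate 1 and 0.204 without neuron replicate 2. Both windows hold no annotated gene and lie just upstream of Gm38505, a noncoding RNA gene. A window inside Gm38505, 320 to 315 kb upstream, held 0.177% and 1.01% in neurons, against 0.137% and 0.0515% in ES cells (log2 2.63, adjusted p = 0.0319). Its gain rested on neuron replicate 2, where 128 of 289 reads came from 1 fragment, and without that library the adjusted p was 0.866. The window 270 to 265 kb upstream held 0.124% and 0.491% in neurons, against 0.0571% and 0.0271% in ES cells (log2 2.83, adjusted p = 0.0342), and its adjusted p was 0.0731 without neuron replicate 1 and 0.777 without neuron replicate 2. With TMM factors only the window 360 to 355 kb upstream still passed among these 4 (adjusted p = 0.0020), and the adjusted p of the others was 0.0617 to 0.0795. Without ES replicate 1 or ES replicate 2 the adjusted p of those others was 0.0951 to 0.599.

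**Figure D3:**
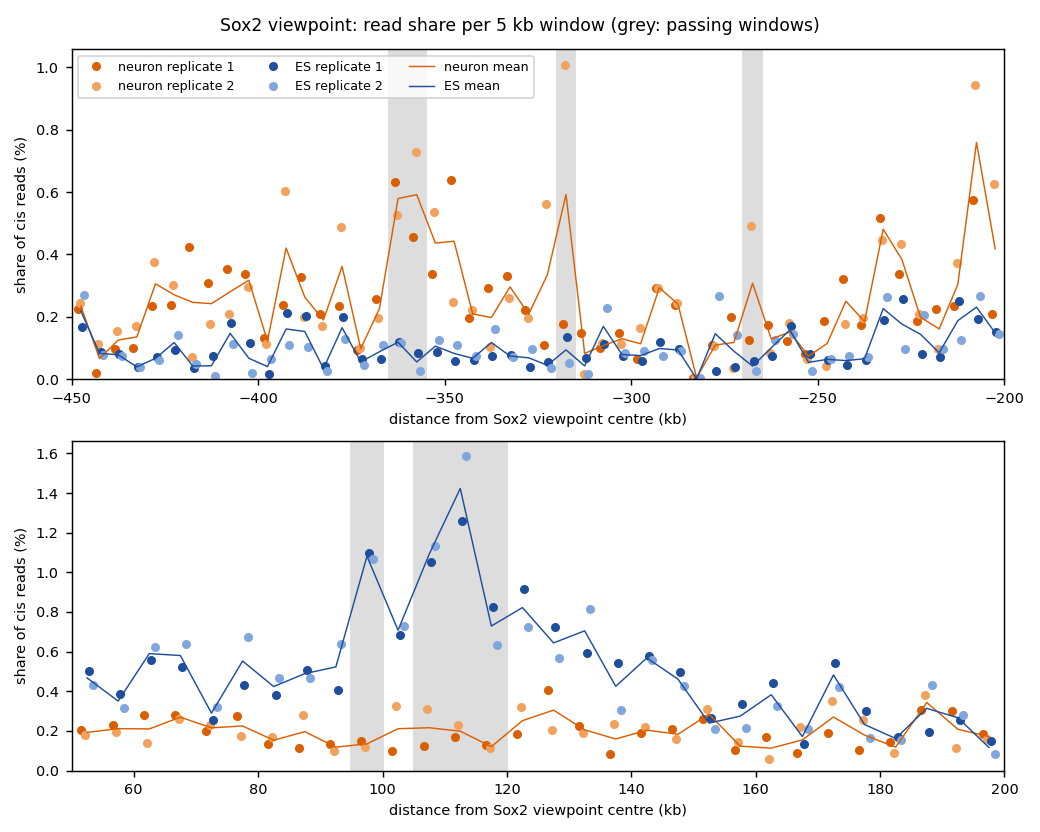
Share of cis reads (%) per 5 kb window against distance from the Sox2 viewpoint centre (kb), with a point per library, lines for group means and grey bands for passing windows. Upstream (top) the neuron mean is higher in the grey windows, and 95 to 120 kb downstream (bottom) the ES libraries reach 1.59% where the neuron libraries stay at 0.310% or less in the grey windows.

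Summed over its whole body, Gm38505 (chr3:34298173-34351698) held 2.41% and 2.98% in neurons, against 0.801% and 0.937% in ES cells. Neuron libraries lay above ES libraries in 8 of its 12 windows, against 30.6% of all Sox2 windows. In the band 200 to 500 kb upstream, which contains the gene, they did so in 36 of 59 windows. Gm38505 had a log2 change of 1.63 (SE 0.35, adjusted p = 0.0074 over all gene bodies). The call ended without neuron replicate 2, ES replicate 1 or ES replicate 2 (adjusted p 0.103 to 0.230). Sox2ot, the noncoding gene whose body spans Sox2, held 15.4% and 14.0% in neurons, against 12.4% and 11.6% in ES cells (log2 0.29, adjusted p = 0.239), the same as the median change of all Sox2 windows. On the far upstream side Fxr1, which encodes an RNA-binding protein of the fragile X family, held 0.963% and 0.606% in neurons, against 0.516% and 0.539% in ES cells (adjusted p = 0.627). Dnajc19, of mitochondrial protein import, held 0.654% and 0.352% in neurons, against 0.203% and 0.247% in ES cells (adjusted p = 0.239). Ttc14 and the cilium gene Ccdc39 overlapped between the groups. Far downstream, the band 500 to 1000 kb held 16.0% and 17.8% in neurons, against 12.0% and 13.2% in ES cells (log2 0.42, adjusted p = 0.0344). With TMM factors its log2 change was 0.16 (adjusted p = 0.417), and it did not pass without neuron replicate 2, ES replicate 1 or ES replicate 2 (adjusted p 0.166 to 0.313).

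At Pou3f3 neurons gained contact with noncoding genes far upstream. The body of Gm29260 (chr1:41743022-41939598), annotated as a long noncoding RNA gene, held 11.7% and 8.87% in neurons, against 3.04% and 3.75% in ES cells. Both neuron libraries lay above both ES libraries by a wide margin. Its log2 change was 1.60 (SE 0.17, adjusted p = 6.8e-07), the smallest adjusted p of all gene bodies, and it passed in every alternative fit. NSC held 8.86% ± 0.873 there. Of the 40 windows over Gm29260, 28 had both neuron libraries above both ES libraries, where 19.8% of the Pou3f3 windows did, and 11 of the 40 passed. With the fewest reads that runs of fragments allow, 3 Pou3f3 windows passed, and of the 22 windows named here for Sox2 and Pou3f3 together 5 still did.

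These windows formed 3 clusters within the gene. At 890 to 875 kb upstream the window with the smallest adjusted p, chr1:41807534-41812533, held 1.09% and 0.840% in neurons, against 0.170% and 0.225% in ES cells (log2 2.29, SE 0.38, adjusted p = 9.4e-07). Its neighbour chr1:41812534-41817533 held 0.616% and 0.604% in neurons, against 0.0411% and 0.198% in ES cells (log2 2.37, adjusted p = 0.0024), and without ES replicate 1 its adjusted p was 0.367. The last of the cluster, chr1:41817534-41822533, held 0.593% and 0.350% in neurons, against 0.0860% and 0.0701% in ES cells (log2 2.59, adjusted p = 2.9e-04). Its outer windows passed without each library. At 815 to 795 kb upstream 4 adjoining windows passed, with neuron shares of 0.320% to 0.677% and ES shares of 0.0598% to 0.181%. The highest of them, chr1:41892534-41897533, held 0.657% and 0.677% in neurons, against 0.181% and 0.125% in ES cells (log2 2.11, adjusted p = 7.9e-04) and holds an annotated start site of Gm29260. It did not pass without ES replicate 2 (adjusted p = 0.102), and the window before it likewise (adjusted p = 0.118). The outer windows of the 4 lost their call without 3 or 4 of the libraries, with adjusted p up to 0.329.

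At 955 to 945 kb upstream lies the first annotated start of Gm29260, whose sequence is printed above. The window chr1:41742534-41747533 held 0.654% and 0.260% in neurons, against 0.0748% and 0.0548% in ES cells (log2 2.81, SE 0.73, adjusted p = 0.0055). The adjoining window held 0.647% and 0.280% in neurons, against 0.120% and 0.107% in ES cells (log2 2.03, adjusted p = 0.0199). In both windows neuron replicate 1 was the higher of the neuron libraries, and without it the adjusted p was 0.435 and 0.477. They also did not pass without ES replicate 1 or ES replicate 2 (adjusted p 0.0941 to 0.295). Between the clusters, single windows passed at 920 to 915 kb upstream (log2 2.75, adjusted p = 0.0199) and at 905 to 900 kb upstream (log2 2.86, adjusted p = 0.0133). Their ES libraries had 30 and 5 reads in the one and 18 and 8 in the other, and neither passed without neuron replicate 2, ES replicate 1 or ES replicate 2 (adjusted p 0.0686 to 0.512), nor the farther one without neuron replicate 1 (adjusted p = 0.305).

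Nearer to the viewpoint a pair of adjoining windows at the start of Gm28175, another long noncoding RNA gene, also passed. The window 440 to 435 kb upstream (chr1:42257534-42262533), which holds the Gm28175 start printed above, had 1.01% and 0.690% in neurons, against 0.146% and 0.146% in ES cells. Its log2 change was 2.54 (SE 0.45, adjusted p = 2.7e-06), and it passed without each library, with an adjusted p of 0.0985 when the fewest reads per run were counted. The window 445 to 440 kb upstream, with no annotated gene, had 0.725% and 0.564% in neurons, against 0.116% and 0.231% in ES cells (log2 1.90, adjusted p = 0.0055), and did not pass without neuron replicate 1 or ES replicate 1 (adjusted p = 0.184 and 0.367). The whole body of Gm28175 (chr1:42257852-42310010) held 3.01% and 2.29% in neurons, against 1.35% and 1.16% in ES cells (log2 1.07, adjusted p = 0.0409), with adjusted p of 0.112 to 0.353 when any of the 4 libraries was left out. By the q value below 0.05 in the authors' deposited table, Gm28175 had 3 of 107 and 0 of 93 listed fragments in neurons. In ES cells it had 0 of 95 and 0 of 92. Gm29260 had 2 of 395 and 1 of 350 in neurons, against 0 of 337 and 0 of 302 in ES cells. Within 1 Mb of the Pou3f3 viewpoint 47 of 2732 and 38 of 2402 fragments were such in neurons. In ES cells 49 of 2917 and 43 of 2816 were. These few fragments were not tested.

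**Figure D4:**
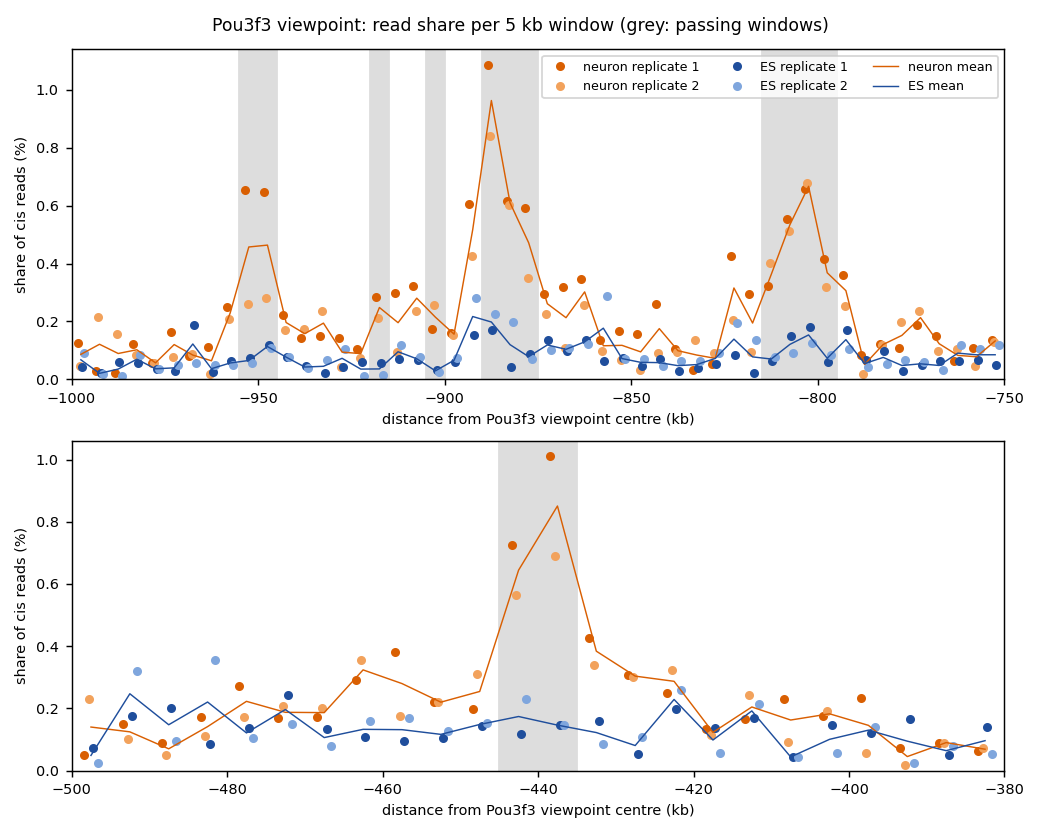
Share of cis reads (%) per 5 kb window against distance from the Pou3f3 viewpoint centre (kb), with a point per library, lines for group means and grey bands for passing windows. Over Gm29260 (top) and at the start of Gm28175 (bottom) the neuron libraries reach 1.09% and 1.01%, while the ES libraries stay at or below 0.231% in the grey windows.

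The remaining passing Pou3f3 window lay within Pantr1, a noncoding gene next to Pou3f3 that was named after its values were seen. At 20 to 15 kb upstream it held 1.52% and 2.07% in neurons, against 1.03% and 0.835% in ES cells (log2 0.95, adjusted p = 0.0234), with an adjusted p of 0.0534 with TMM factors and 0.309 to 0.594 without neuron replicate 2, ES replicate 1 or ES replicate 2. The whole body of Pantr1 did not follow this window, with 7.88% and 10.3% in neurons, against 8.58% and 7.55% in ES cells, and Pantr2 held 3.89% and 4.18% in neurons, against 4.25% and 4.00% in ES cells. The groups overlapped at both genes.

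As bands, Pou3f3 contacts were higher far upstream and lower far downstream in neurons. The band 500 to 1000 kb upstream held 17.2% and 13.9% in neurons, against 8.08% and 9.05% in ES cells (log2 0.86, SE 0.15, adjusted p = 4.3e-05). It contains the whole body of Gm29260, so the band and the gene share reads and are not separate results. Its 11 passing windows are those over Gm29260, and the rest of the band was not tested apart from the gene. The band 500 to 1000 kb downstream held 0.978% and 0.927% in neurons, against 2.11% and 2.17% in ES cells, and fell by 1.17 (SE 0.21, adjusted p = 5.9e-05). Both passed without each library and with TMM factors. The band 200 to 500 kb downstream held 3.54% and 2.34% in neurons, against 5.08% and 6.03% in ES cells, and fell by 0.92 (adjusted p = 0.0209), a call that ended without neuron replicate 2, ES replicate 1 or ES replicate 2 (adjusted p 0.0568 to 0.237). In 28 of its 53 windows the neuron libraries lay below the ES libraries, where 31.3% of the Pou3f3 windows did. The band 5 to 10 kb downstream held 5.45% and 5.50% in neurons, against 3.68% and 3.63% in ES cells (log2 0.58, adjusted p = 0.0468). That call ended without any of the 4 libraries (adjusted p 0.0849 to 0.266), and counting the fewest reads that runs of fragments allow its log2 change was 0.03.

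The listed genes of the downstream side did not pass one by one. Gpr45, an orphan receptor gene, held 0.869% and 0.453% in neurons, against 1.27% and 1.43% in ES cells (log2 -1.03, adjusted p = 0.328). Mrps9, a gene of the mitochondrial ribosome, held 1.07% and 0.904% in neurons, against 1.39% and 1.82% in ES cells (log2 -0.70, adjusted p = 0.339). Tgfbrap1 and Nck2 had log2 changes of -0.82 and -0.77, with adjusted p of 0.323 and 0.385. At all 4 genes both neuron libraries lay below both ES libraries. That was common at this viewpoint, where it held for 13 of the 24 gene bodies tested, with a median log2 change of -0.66.

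At the Pax6 locus, the bands that passed all lay on the downstream side, which runs through the 3′ part of Pax6, Elp4, Immp1l, Dnajc24 and Dcdc5. From Pax6P1 the band 200 to 500 kb downstream held 9.73% and 12.4% in neurons, against 6.52% and 6.07% in ES cells (log2 0.82, SE 0.19, adjusted p = 0.0019). The neuron libraries lay above the ES libraries in the band as a whole and in 33 of its 59 windows, where 25% of the Pax6P1 windows did. The call passed without each library and with TMM factors (log2 0.63, adjusted p = 0.0028). From Pax6P0 the same distance held 8.96% and 12.2% in neurons, against 6.51% and 7.46% in ES cells (log2 0.60, adjusted p = 0.0531), and from Paupar 8.36% and 10.6% in neurons, against 7.43% and 6.97% in ES cells (log2 0.40, adjusted p = 0.115). The groups did not overlap from either viewpoint, though neither passed. The 3 viewpoints lie within 20 kb of each other in the same libraries, and these values are not independent. NSC held 10.6% ± 1.33 in the Pax6P1 band.

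Near the promoters, the bands 10 to 50 kb downstream are given by viewpoint, and the viewpoints were not tested against each other. These bands start from different centres and so cover partly different sequence. From Pax6P0 this distance held 7.41% and 5.56% in neurons, against 7.23% and 8.08% in ES cells, and the groups overlapped. From Pax6P1 the band 10 to 50 kb downstream held 6.80% and 8.04% in neurons, against 5.33% and 4.94% in ES cells (log2 0.53, adjusted p = 0.0445), a call that ended with TMM factors (adjusted p = 0.212) and without neuron replicate 2, ES replicate 1 or ES replicate 2 (adjusted p 0.239 to 0.321). From Paupar the band 10 to 50 kb downstream, which starts near the P1 promoter, held 5.07% and 4.72% in neurons, against 7.29% and 6.92% in ES cells, and fell by 0.54 (SE 0.18, adjusted p = 0.0349). Without neuron replicate 2, ES replicate 1 or ES replicate 2 its adjusted p was 0.175 to 0.309, and with DESeq2 size factors it was 0.0547. No single window of it passed. The smallest unadjusted p from Paupar included the windows 10 to 15 kb downstream, with 1.04% and 1.20% in neurons, against 1.67% and 1.80% in ES cells, and 25 to 30 kb downstream, with 0.668% and 0.308% in neurons, against 0.875% and 0.948% in ES cells, both within Pax6 and both at an adjusted p of 0.986. The other, in Qser1 900 to 895 kb upstream, held no reads in either neuron library and 0.0267% and 0.0978% in the ES libraries.

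Contacts among the promoters themselves were read over 6 directed pairs of stretches, of which 2 passed (33.3%), 1 higher and 1 lower in neurons (16.7% each). With TMM factors 2 passed, both lower. From Paupar the Pax6P1 stretch held 1.63% and 1.58% in neurons, against 2.79% and 2.63% in ES cells, and fell by 0.75 (SE 0.19, adjusted p = 5.7e-04). The call passed without each library and ended when the fewest reads that runs of fragments allow were counted (log2 -1.23, adjusted p = 0.106). Most reads of the Pax6P0 stretch from Paupar also count in the band 5 to 10 kb downstream of Paupar. That band did not pass (log2 0.34, adjusted p = 0.234 by edgeR over all bands). Tested as a pair, from Paupar the Pax6P0 stretch held 4.40% and 4.18% in neurons, against 3.50% and 3.28% in ES cells (log2 0.34, SE 0.13, adjusted p = 0.0309). That call ended with TMM factors (adjusted p = 0.0979) and without any of the 4 libraries (adjusted p 0.0555 to 0.280).

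Read the other way, no pair passed. From Pax6P0 the Pax6P1 stretch held 3.32% and 3.17% in neurons, against 4.09% and 5.07% in ES cells (log2 -0.50, adjusted p = 0.0561), and the Paupar stretch held 3.22% and 3.44% in neurons, against 2.82% and 2.86% in ES cells (log2 0.23, adjusted p = 0.367). From Pax6P1 the Paupar stretch held 1.43% and 1.28% in neurons, against 1.84% and 2.05% in ES cells (log2 -0.52, adjusted p = 0.145), and the Pax6P0 stretch 3.21% and 2.56% in neurons, against 3.69% and 3.54% in ES cells (log2 -0.33, adjusted p = 0.193). In all 6 pairs the neuron libraries lay to one side of the ES libraries, below in the 4 with Pax6P1 at one end (66.7%) and above in the 2 between Paupar and Pax6P0 (33.3%). Of the windows of these viewpoints, 17.1% to 17.4% lay below and 17.4% to 25% above. The pairs read the same contacts in both directions in the same libraries, so they are not independent results.

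**Figure D5:**
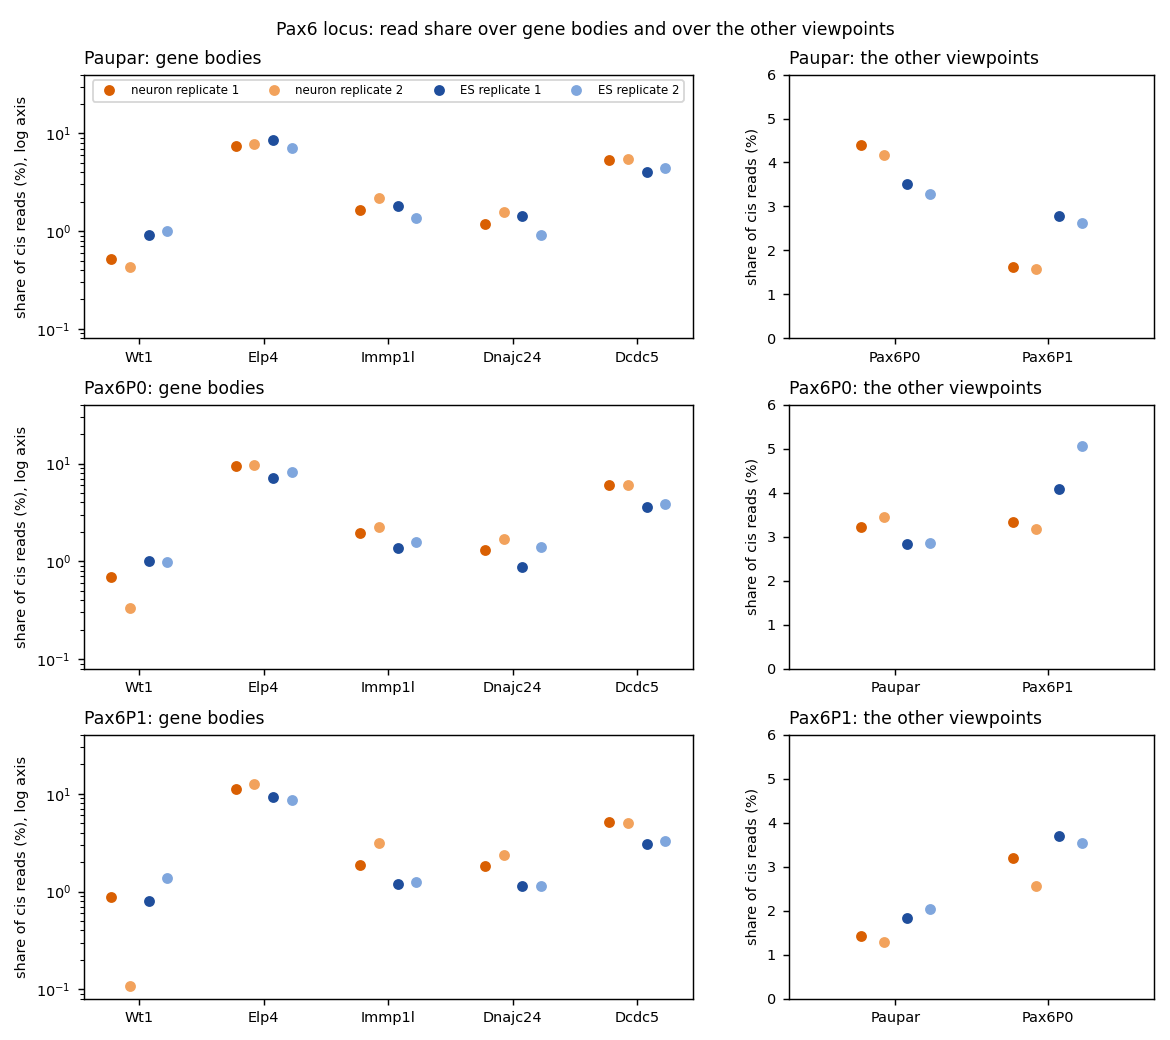
Share of cis reads (%) of 4 libraries over gene bodies (left, log axis) and over the stretches of the other viewpoints (right), 1 row per Pax6-locus viewpoint. Neuron libraries lie above ES libraries over Dcdc5 from all 3 viewpoints, and below them over the Pax6P1 stretch from Paupar (1.63% and 1.58% against 2.79% and 2.63%).

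Over all viewpoints 132 gene bodies were tested and 5 passed (3.79%), all higher in neurons. TMM factors and DESeq2 size factors each gave 7, 3 higher and 4 lower, and reads within 1 Mb as library size gave 6, 3 higher and 3 lower, so the absence of lower genes depended on the scaling. At the Pax6 locus 2 of 85 passed, both from Pax6P1. Dcdc5, a doublecortin-domain gene, held 5.17% and 5.07% in neurons, against 3.08% and 3.30% in ES cells (log2 0.68, SE 0.19, adjusted p = 0.0455). Immp1l, which encodes a subunit of the inner mitochondrial membrane peptidase, held 1.85% and 3.17% in neurons, against 1.20% and 1.24% in ES cells (log2 1.04, SE 0.29, adjusted p = 0.0455). Neither passed with TMM factors (adjusted p = 0.227 and 0.0727) or without neuron replicate 2, ES replicate 1 or ES replicate 2 (adjusted p 0.264 to 0.619), and Dcdc5 also not without neuron replicate 1 (adjusted p = 0.215).

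From the other viewpoints, and for their neighbours, no gene of this side passed. Dcdc5 held 6.05% and 5.99% in neurons, against 3.63% and 3.88% in ES cells from Pax6P0 (adjusted p = 0.0938). From Paupar it held 5.39% and 5.52% in neurons, against 4.06% and 4.47% in ES cells (adjusted p = 0.276). Elp4, an Elongator subunit gene known for the distal Pax6 enhancers within its introns, held 11.3% and 12.7% in neurons, against 9.35% and 8.64% in ES cells from Pax6P1 (log2 0.41, adjusted p = 0.238). From Paupar it held 7.50% and 7.85% in neurons, against 8.55% and 7.06% in ES cells, and the groups overlapped. Dnajc24, a gene of diphthamide synthesis, held 1.81% and 2.34% in neurons, against 1.15% and 1.14% in ES cells from Pax6P1 (log2 0.86, adjusted p = 0.180).

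The upstream side of the Pax6 locus held no passing band or gene. The band 500 to 1000 kb upstream held 3.02% and 2.05% in neurons, against 3.25% and 3.76% in ES cells from Paupar (log2 -0.47, adjusted p = 0.234). From Pax6P0 it held 3.31% and 2.05% in neurons, against 4.26% and 4.07% in ES cells (log2 -0.63, adjusted p = 0.114). From Pax6P1 it held 2.92% and 2.52% in neurons, against 3.57% and 4.43% in ES cells (log2 -0.55, adjusted p = 0.201). Both neuron libraries lay below both ES libraries from all 3 viewpoints, with changes about the size of those 200 to 500 kb downstream from Pax6P0 and Paupar, which did not pass either. Wt1, a factor of kidney and gonad development, held 0.525% and 0.432% in neurons, against 0.910% and 1.00% in ES cells from Paupar (log2 -0.997, adjusted p = 0.254). From Pax6P0 it held 0.686% and 0.332% in neurons, against 1.00% and 0.992% in ES cells (adjusted p = 0.386). From Pax6P1 the neuron libraries held 0.881% and 0.108% and the ES libraries 0.794% and 1.39%, so the groups overlapped. Among the smallest unadjusted p of single windows were a Wt1 window from Pax6P0, with 0.0610% and 0.0820% in neurons, against 0.281% and 0.340% in ES cells (adjusted p = 0.957), and one from Pax6P1, with 0.0109% and 0.00327% in neurons, against 0.107% and 0.254% in ES cells (adjusted p = 0.816). The others were windows in Dnajc24 and Dcdc5 from Pax6P0 and in Elp4 and Depdc7 from Pax6P1, none passing, with the neuron libraries above at all but Depdc7. Rcn1, a calcium-binding protein gene of the endoplasmic reticulum, and 4930527A07Rik had overlapping groups from all 3 viewpoints. Pax6os1, an antisense noncoding gene whose body overlaps Pax6 and Paupar, held 20.1% and 22.7% in neurons, against 19.8% and 18.9% in ES cells from Paupar (adjusted p = 0.555).

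Of 32 listed genes, 22 lay within reach and passed the filter, and 10 were not tested. Sox2 and Pou3f3 lie within the 5 kb left out around their viewpoints, and the rest lay beyond 1 Mb, were not found in the annotation under that name or did not pass the filter. The 22 genes gave 43 gene and viewpoint combinations, of which 2 passed higher and 0 lower, both named above. Their median log2 change was 0.10, against -0.02 for all 132. Both neuron libraries lay above both ES libraries in 15 of the 43 and below in 12, where 28% of all 132 lay above and 25% below. Bodies that overlap, such as Pax6 with Elp4 and with Pax6os1, share fragments.

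For what differed from ES cells, neurons were set beside NSC, labelled as cortical neural stem cells of the stage from which the neurons were made. Of the 22 windows that passed against ES cells, 0 passed between neurons and NSC in the same edgeR fit, and 2 had an unadjusted p under 0.05. Of 12 bands 0 passed and 0 had such a p, and of 5 gene bodies 0 passed and 1 had such a p. Over all 1686 windows, 60 bands and 132 gene bodies, neither edgeR nor DESeq2 passed any between neurons and NSC (0 and 0%), while 57, 1 and 2 had an unadjusted edgeR p under 0.05. Summed over the viewpoints, NSC replicate 1 held 110677 listed reads, the fewest of the 8 libraries, and NSC replicate 2 held 341036. A p that misses the threshold does not show that neurons and NSC were alike. Since both are set against the same ES libraries, only their own values are given, such as 14.2% ± 0.981 in neurons and 13.3% ± 0.837 in NSC in the band 200 to 500 kb upstream of Sox2, and 2.69% ± 0.404 in neurons and 1.53% ± 0.446 in NSC over Gm38505.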

How the data were processed

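Genomic DNA of 8 libraries was read for 5 viewpoints, in 40 files. The submitters' processing notes name Trim Galore, Bowtie and the mm10 build. Of versions, enzyme, duplicate removal and the caller of interactions, none was given in the sources used here. Per restriction fragment, the deposited read column holds counts of at least 1, not normalized, per the file headers. The authors' column headed RPMs, a signal, and their z score were not used. The authors' deposited q-value was used to count fragments below 0.05, and their p-value was not used. Adjacent fragments often repeated a count: listed reads exceeded the fewest reads giving the same runs by a median of 2.19 times (1.88 to 2.80).

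Each viewpoint was taken as the longest gap in the listed fragments near its gene. Counts were summed by fragment midpoint in 5 kb windows within 1 Mb, leaving out 5 kb on either side, in bands, in RefSeq gene bodies (GRCm38.p6), in the stretches of the other viewpoints up to 5 kb around their centre or to the midpoint, and 100 to 120 kb downstream of Sox2. Library size was the cis reads outside those 5 kb, which numbered 22028 to 75244 in the neuron and ES files. Features passing filterByExpr were fitted with edgeR 4.0.16 (glmQLFit, robust) on R 4.3.3, with 1 coefficient per cell type, over all 8 libraries. The Sox2 control region and the pairs were fitted together with the windows of their viewpoint. The estimate of the spread was shared among the features of a fit. The contrast was neuron minus ES, two-sided, with Benjamini-Hochberg adjustment over the windows of a viewpoint, all bands, all gene bodies or the 6 pairs, and a threshold of 0.05. Scripts were tested on simulated data. Standard errors are the size of the log2 change over the square root of F.

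Alternatives were TMM and DESeq2 1.42.0 size factors, the DESeq2 test, reads within 1 Mb as library size, no filter, 10 and 20 kb windows, a replicate block, neuron and ES libraries only, the fewest reads per run, and leaving out each library. Named windows were those passing with groups apart, up to 10 higher and 10 lower per viewpoint by adjusted p, or the 3 of smallest p where none passed. At Pou3f3 all 14 passing windows were described, beyond the 10 of this rule. All bands, pairs, listed genes and passing genes were described or counted. Members and lists were chosen with earlier results of these data known. The labels share replicate numbers and do not say that these pair the libraries.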

Additional observations from a re-analysis of the deposited data

How the results depend on the processing

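The Sox2 control region passed in every alternative, at -2.94 to -2.02 on the log2 scale without each library in turn and -2.48 with a replicate block. No named value that passed changed its direction. Window counts stayed at 0 for Paupar, Pax6P0 and Pax6P1 throughout, also without each library (0 to 0). Sox2 windows numbered 8, and 5 with DESeq2 size factors, 13 with the DESeq2 test, 17 with 20 kb windows, 31 with neuron and ES libraries only, 2 with the fewest reads per run and 2 to 5 without each library. Pou3f3 windows numbered 14, and 23 with neuron and ES libraries only, 3 with the fewest reads per run and 5 to 11 without each library. Bands numbered 12, and 6 to 14 without each library. Gene bodies numbered 5, and 10 with the DESeq2 test, 14 with neuron and ES libraries only and 1 to 4 without each library. Viewpoint pairs numbered 2, and 4 with DESeq2 size factors, 4 with neuron and ES libraries only and 0 with the fewest reads per run. Fits without a library leave its cell type with 1, assumed to vary like the others, and fits of 4 libraries estimate the spread from fewer samples; the cause of the other shifts was not tested.

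With the replicate number as a block, 7 Sox2 and 16 Pou3f3 windows, 14 bands, 7 gene bodies and 3 pairs passed. Deviations of same-numbered libraries correlated at -0.106 to 0.143 across windows of a viewpoint, and the labels do not pair the numbers. The Sox2 windows 320 and 270 kb upstream did not pass with the block (adjusted p = 0.106 and 0.0807).

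Of the passing values, 6 of 12 bands, 1 of 5 gene bodies, 1 of 2 pairs and 4 of 22 windows passed without each library in turn. Single windows had medians of 19 to 86.5 reads and a fitted spread of 55.3% to 73.1% between replicates; how small a difference these allow was not measured, and the part of depth in the windows that did not pass was not tested.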
